A study of Arabidopsis thaliana with 6 samples.

Results

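The genes described here encode heat shock transcription factors and chaperones of Arabidopsis thaliana, mostly small heat shock proteins and cytosolic HSP70 proteins. They were chosen by locus, as 19 heat shock factor (HSF) genes and 23 others: 16 genes listed as small heat shock proteins, 5 cytosolic HSP70 genes, HSP90.1 and HSP101. That is 42 of the 25383 loci named by at least 1 probe, and all 42 had a probe, 55 in all. Of these genes, 35 gave a signal well above background on all 6 arrays (16 factors and 19 others), 5 on some arrays (HSFA2, HSFA7B, HSP17.4, ATHSP22.0 and AT5G37670) and 2 on none (HSFA6B and HSP21). Over all loci, 17996 were well above background on every array and 3304 on some.

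The material was shoot apical meristem with juvenile leaves from plants aged 21 days, 30 plants to a sample, each sample read on 1 single-colour array. The plants carried XVE, an activator that turns on its target promoter once the steroid 17-β-estradiol is applied, and all samples but 1 also carried the inducible construct AMY3C-EY, whose product and promoter the labels do not describe. AMY3C-EY plants were harvested without treatment (0 h, which the labels also list under estradiol) or at 1, 3 or 6 h after 20 µM estradiol had been brushed onto the meristem. The 2 other samples were taken at 6 h. They were XVE plants, with no AMY3C-EY and given estradiol, and DMSO plants, which carried AMY3C-EY and received only the solvent. A group is a single array, so its spread is unknown, no difference was tested, and precision is limited by the number of arrays.

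The arrays of 0, 1, 3 and 6 h shared a slide (slide 1), and those of XVE and DMSO plants shared another (slide 2), so slide and group cannot be told apart in comparisons between them. A level is the log2 signal of a gene minus that of the 75th percentile of its array, and each gene is compared with itself only. That percentile ranged from 341.6 in XVE plants and 481.8 at 1 h to 1435.4 at 3 h. Of 8 meristem marker genes 7 were well above background on every array, WUS on none, and so were all 6 leaf mesophyll markers, 3 of 5 flower markers and 2 of 4 root markers. The mean level of the 6 leaf markers was 3.91 before induction, 4.16 after 1 h, 3.93 after 3 h and 3.35 after 6 h of estradiol, 5.19 in XVE plants and 4.22 in DMSO plants. In pooled tissue, fewer cells of a type and less RNA per cell cannot be told apart.

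In plants, HSFA1 proteins are held inactive by HSP70 and HSP90 and are released when proteins misfold. They then switch on further factors such as HSFA2, HSFA7A and HSFB2A, and the chaperone genes that keep unfolded proteins soluble (small heat shock proteins), refold them (HSP70 and HSP90) or pull them out of aggregates (HSP101). Class B factors such as HSFB2B lack an activation domain and repress, and several chaperone genes of the set are nearly silent in leaves without heat and are also used in seeds and pollen.

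Differences from 0 h ran both ways on every array. Among the 35 genes measured on all arrays, the range of a gene over the 6 arrays had a median of 0.85 on the log2 scale, and 20 (57.1%) varied by less than 1. Over all 17996 such genes the median range was 0.85 as well, and 62.8% varied by less than 1. A range of 2 or more was reached by 4 of the 35 (11.4%), against 6.19% of all genes: HSFA5 (6.53), the small heat shock protein gene AT4G21870 (5.60), AT1G54840 (3.46) and HSFA8 (2.67). AT1G54840 is annotated as IDM2, a protein with the α-crystallin domain of small heat shock proteins that takes part in active DNA demethylation, and is named so below.

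**Figure D1:**
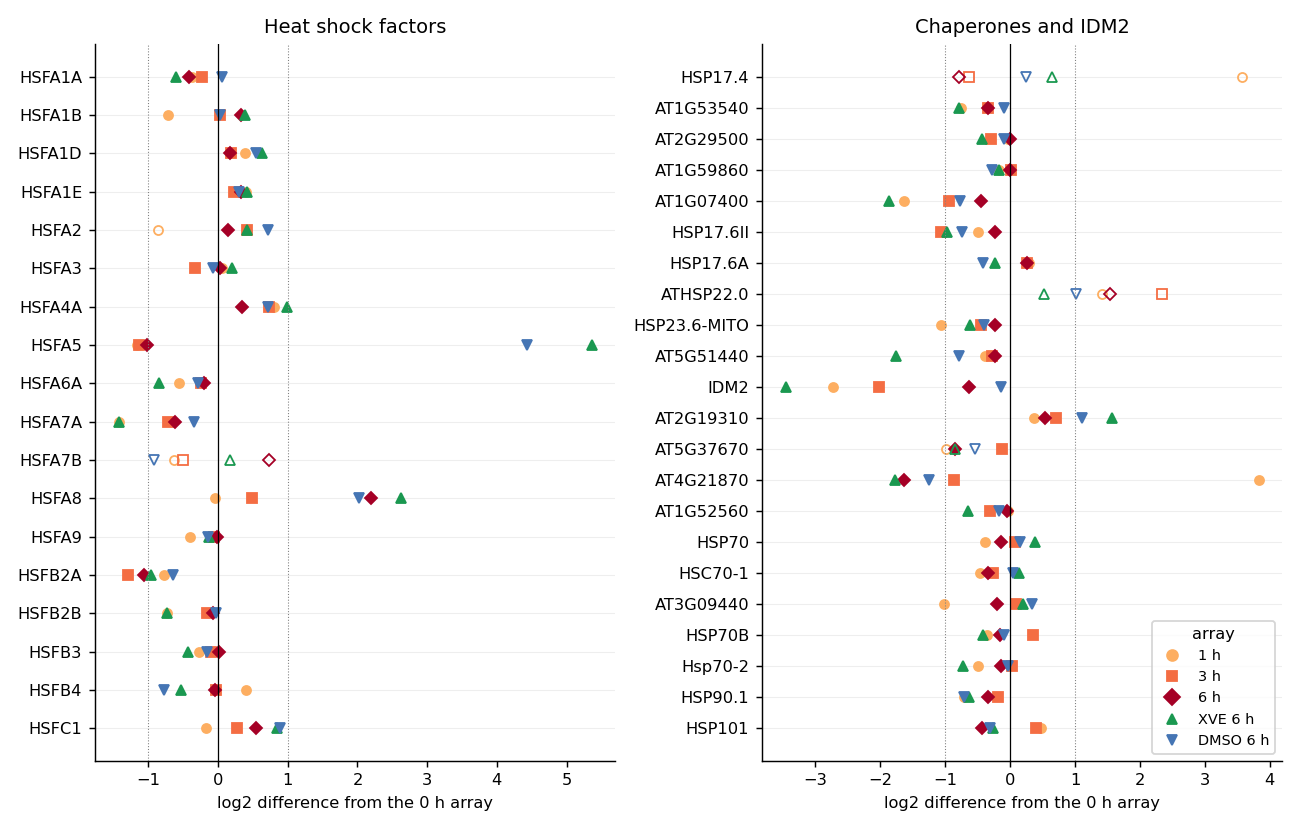
Log2 difference of each gene from the 0 h array (x axis) on the other 5 arrays (symbols), heat shock factors on the left and chaperones with IDM2 on the right; open symbols mark differences where the gene was not well above background on 1 or both arrays, and dotted lines mark 2-fold. Most genes lie within 2-fold on every array, while HSFA5 reaches 5.36, AT4G21870 3.83 and IDM2 -3.46.

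Taken as means over their probes, the HSFA1 genes, which start the heat response, were within 2-fold of their untreated level on every array. HSFA1A was at -2.59 before induction, -2.96 after 1 h, -2.82 after 3 h and -3.01 after 6 h of estradiol, -3.19 in XVE plants and -2.54 in DMSO plants. Its 2 probes ran opposite ways relative to 0 h at 1 h, by -1.42 and 0.66, and in DMSO plants, by -0.91 and 1.01. HSFA1B had -2.57 before induction, -3.29 after 1 h, -2.55 after 3 h and -2.24 after 6 h of estradiol, -2.19 in XVE plants and -2.55 in DMSO plants. The 1 h array was the lowest of the 6 for HSFA1B. Its 2 probes differed from 0 h there by -0.52 and -0.93, but the second was not well above background at 1 h. HSFA1D and HSFA1E had their lowest level at 0 h (-3.31 and -2.36) and their highest in XVE plants (-2.68 and -1.94), spans of 0.63 and 0.42. None of the 4 was 2-fold apart from 0 h on any array as a mean over its probes, though single HSFA1A probes were.

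HSFA2, the heat-induced factor of acquired thermotolerance, was at -3.59 before induction, -4.45 after 1 h, -3.17 after 3 h and -3.45 after 6 h of estradiol, -3.17 in XVE plants and -2.87 in DMSO plants. At 1 h its spot was not well above background. That dim value was 1.81-fold below 0 h, which is not a firm bound. HSFA7A, another factor that heat induces through HSFA1, was at 1.18 before induction, -0.25 after 1 h, 0.45 after 3 h and 0.56 after 6 h of estradiol, -0.25 in XVE plants and 0.83 in DMSO plants. HSFA7A was thus below 0 h on all 5 later arrays, by 2.69-fold at 1 h and in XVE plants. HSFA7B was well above background at 3 h and 6 h only, at -5.45 and -4.22. Its 3 h level was nevertheless below its dim values at 0 h (-4.95) and in XVE plants (-4.79). The lowest level that cleared background was -5.74 at 3 h and -4.34 at 0 h, so clearing it did not order these arrays. At 6 h HSFA7B was at least 1.09-fold above 0 h and at least 1.27-fold above DMSO plants. The related seed factor gene HSFA9 (-0.56 to -0.16) and HSFA3, which acts below the drought factor DREB2A (-2.99 to -2.45), spanned 0.40 and 0.54 over the 6 arrays.

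HSFA8 stood apart by time of harvest. It was at -3.51 before induction, -3.56 after 1 h, -3.02 after 3 h and -1.32 after 6 h of estradiol, -0.89 in XVE plants and -1.49 in DMSO plants. All 3 arrays at 6 h, with or without estradiol and on both slides, were above the 3 earlier arrays by a gap of 1.53. Against 0 h the difference was 4.56-fold at 6 h of estradiol, 6.14-fold in XVE plants and 4.05-fold in DMSO plants, while 6 h of estradiol and DMSO differed by 0.17. HSFA8 was the 1 gene of 35 at least 2-fold higher on every 6 h array than on every earlier array, where 0.306% of all genes were. The early values came from a dim spot, whose median signal was 96 before induction and 91 after 1 h, against local backgrounds of 46 and 51. With the normexp background correction the 3 differences from 0 h were 1.34, 1.72 and 1.15 on the log2 scale, in the same order. HSFA1B and HSFC1 were also higher on all 3 arrays at 6 h (8.49% of all genes), by gaps of 0.003 and 0.27. The HSFA1B gap is negligible, and 1 of its 2 probes was lower in DMSO plants than at 0 h. HSFB4, AT4G21870 and HSP101 were lower on all 3 (7.69% of all genes), by gaps of -0.02, -0.39 and -0.27. No plants were harvested untreated at 6 h, so time of day and brushing cannot be told apart for HSFA8.

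HSFA5, a factor known to inhibit HSFA4 proteins, differed by slide. It was at 1.17 before induction, 0.00 after 1 h, 0.04 after 3 h and 0.15 after 6 h of estradiol, 6.53 in XVE plants and 5.60 in DMSO plants. Both arrays of the second slide lay above all 4 of the first by a gap of 4.44. No other of the 35 genes parted the slides by 2-fold or more, where 0.395% of all genes did so with slide 2 higher and 0.0889% with slide 2 lower. The single probe was well above background on all 6 arrays, with processed signals of 483.1 to 1473.6 in the time course and of 31568 in XVE plants and 43982 in DMSO plants. On slide 1 alone it was 2.24-fold lower at 1 h, 2.19-fold at 3 h and 2.02-fold at 6 h than at 0 h. The 6 h difference was under 2-fold with quantile scaling (just under), cyclic loess (-0.97) and normexp (-0.96). HSFA4A, the partner HSFA5 is known to bind, was at -1.27 before induction, -0.47 after 1 h, -0.54 after 3 h and -0.93 after 6 h of estradiol, -0.29 in XVE plants and -0.56 in DMSO plants. HSFA4A was above 0 h on all 5 later arrays, with a largest difference of 0.99 in XVE plants.

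HSFA6A, linked to abscisic acid signalling, was highest at 0 h (4.35) and lowest in XVE plants (3.50). Among the class B genes, HSFB2A was at 2.72 before induction, 1.95 after 1 h, 1.43 after 3 h and 1.66 after 6 h of estradiol, 1.76 in XVE plants and 2.07 in DMSO plants. Every array after brushing was below 0 h, by 2.44-fold at 3 h and 2.09-fold at 6 h of estradiol, while the difference was -0.65 in DMSO plants. HSFB2A is 1 of 13 genes below 0 h on all 5 later arrays (21.9% of all genes), with HSFA6A, HSFA7A, HSFA9, HSFB2B and 8 chaperone genes, counting IDM2. HSFB2B was lowest in XVE plants (-1.50) and at 1 h (-1.49), against -0.76 at 0 h. HSFB3 spanned only 0.44. HSFB4, known as SCHIZORIZA for its part in root cell fate, was at -0.82 before induction, -0.43 after 1 h, -0.85 after 3 h and -0.87 after 6 h of estradiol, -1.35 in XVE plants and -1.59 in DMSO plants. Slide 2 thus held the 2 lowest HSFB4 levels, with a gap of 0.48 to slide 1. HSFC1 was at 1.40 before induction, 1.22 after 1 h, 1.67 after 3 h and 1.94 after 6 h of estradiol, 2.24 in XVE plants and 2.28 in DMSO plants, and the 3 arrays at 6 h were above the earlier ones by a gap of 0.27. The 2 HSFC1 probes ran opposite ways relative to 0 h at 1 h, by 0.38 and -0.73, and at 3 h, by 0.68 and -0.14. Both were above 0 h on the 3 arrays at 6 h.

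**Figure D2:**
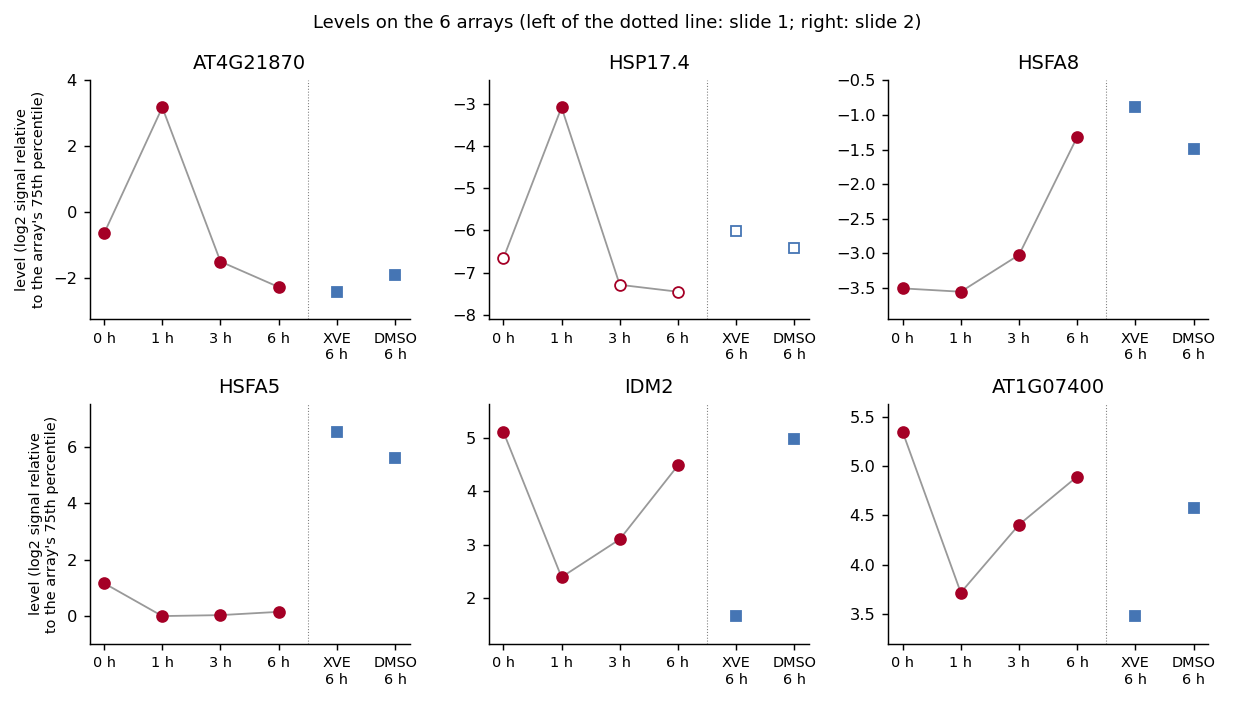
Levels (y axis, log2 signal minus that of the array's 75th percentile) of 6 genes on each of the 6 arrays (x axis), circles for the time course and squares for the XVE and DMSO arrays; open symbols were not well above background and each panel has its own y scale. AT4G21870 and HSP17.4 peak at 1 h (3.18 and -3.09), HSFA8 is high on the 3 arrays at 6 h, HSFA5 on the 2 arrays right of the dotted line, and IDM2 and AT1G07400 are lowest at 1 h and in XVE plants.

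The clearest difference among the chaperones was at 1 h. AT4G21870 was at -0.65 before induction, 3.18 after 1 h, -1.51 after 3 h and -2.28 after 6 h of estradiol, -2.43 in XVE plants and -1.90 in DMSO plants. The 1 h array was 14.2-fold above 0 h, and every other array was below 0 h, by 3.10-fold at 6 h of estradiol, 3.42-fold in XVE plants and 2.38-fold in DMSO plants. In processed signal this was 353.2 before induction, 4360.8 after 1 h, 504.3 after 3 h and 166.6 after 6 h of estradiol, 63.6 in XVE plants and 242.02 in DMSO plants. The 1 h signal was high although the 1 h array was the second dimmest of the 6. HSP17.4, a small heat shock protein gene that is nearly silent without heat, was well above background on the 1 h array only. Its level was -3.09 at 1 h, where the processed signal was 56.7, and at least 2.39-fold above 0 h, where the signal was 5.49. Its levels of -6.66 at 0 h, -7.28 at 3 h, -7.45 at 6 h, -6.02 in XVE plants and -6.41 in DMSO plants were too dim on their arrays to be ordered. ATHSP22.0 was not well above background at 0 h (-5.48), 1 h (-4.07) or in XVE plants (-4.96). It was at -3.14 at 3 h, at least 2.30-fold above 0 h, at -3.94 at 6 h, at least 1.32-fold above 0 h, and at -4.47 in DMSO plants.

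The other small heat shock protein genes did not follow AT4G21870 and HSP17.4. Of 12 measured at 0 h and 1 h, IDM2 included, AT4G21870 alone was at least 2-fold higher at 1 h, 3 were at least 2-fold lower, and 9 had a difference below 0, where 6.31%, 6.38% and 55.3% of all genes did. HSP17.6II was at -2.05 before induction, -2.54 after 1 h, -3.11 after 3 h and -2.28 after 6 h of estradiol, -3.02 in XVE plants and -2.79 in DMSO plants, 2.08-fold lower at 3 h than at 0 h. HSP17.6A, its neighbour in the gene order of chromosome 5, ran differently: -3.48 before induction, -3.19 after 1 h, -3.22 after 3 h and -3.21 after 6 h of estradiol, -3.71 in XVE plants and -3.90 in DMSO plants. HSP17.6A was lower on slide 2, on both arrays, than anywhere on slide 1, by a gap of 0.24. AT1G59860 (-2.35 to -2.06), AT2G29500 (0.07 to 0.50), AT1G52560 (-1.70 to -1.05) and AT1G53540 (-2.42 to -1.63) stayed within 2-fold over all 6 arrays. AT5G37670 was well above background at 0 h, 3 h and 6 h only, at -4.20, -4.32 and -5.04. Its dim value in DMSO plants (-4.74) was above its 6 h level, so clearing background did not order these arrays.

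AT1G07400 was at 5.35 before induction, 3.72 after 1 h, 4.40 after 3 h and 4.89 after 6 h of estradiol, 3.48 in XVE plants and 4.58 in DMSO plants. It was 3.10-fold below 0 h at 1 h and 3.66-fold below in XVE plants. The mitochondrial HSP23.6-MITO was at 1.04 before induction, -0.02 after 1 h, 0.60 after 3 h and 0.82 after 6 h of estradiol, 0.42 in XVE plants and 0.64 in DMSO plants, and its difference at 1 h was -1.07. IDM2 was at 5.12 before induction, 2.39 after 1 h, 3.10 after 3 h and 4.49 after 6 h of estradiol, 1.66 in XVE plants and 4.98 in DMSO plants. IDM2 was 6.63-fold below 0 h at 1 h, 4.05-fold at 3 h and 11.0-fold in XVE plants, and within 2-fold of it at 6 h of estradiol (-0.63) and in DMSO plants (-0.14).

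These genes share a profile with others of the set. In 10 of the 35 genes the 1 h and XVE arrays were both below all 4 others: HSFA6A, HSFA7A, HSFB2B, HSFB3, AT1G53540, AT1G07400, HSP23.6-MITO, IDM2, HSP70B and Hsp70-2. Over all genes 12.2% had this profile, and 7.84% the opposite one, which HSFA1E, HSFA3 and HSFA4A showed. These were the 2 arrays with the dimmest 75th percentile, and the part of array brightness in these differences was not tested.

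AT5G51440 and AT2G19310 parted the slides. AT5G51440 was at -1.96 before induction, -2.35 after 1 h, -2.24 after 3 h and -2.19 after 6 h of estradiol, -3.72 in XVE plants and -2.75 in DMSO plants. Its level in XVE plants was near the lowest that cleared background on that array (-4.09). AT2G19310, also of the small heat shock protein family, was at -2.04 before induction, -1.67 after 1 h, -1.34 after 3 h and -1.51 after 6 h of estradiol, -0.47 in XVE plants and -0.94 in DMSO plants. AT5G51440 was lower on both slide 2 arrays than anywhere on slide 1 and AT2G19310 higher, by gaps of 0.39 and 0.40. In all, 7 of the 35 genes were higher on both arrays of slide 2 (14.2% of all genes), with HSFA1D, HSFA5, HSFC1 and 3 HSP70 genes beside AT2G19310, and 3 were lower (13.4% of all genes). The gaps of the 3 HSP70 genes, given below, were small.

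The cytosolic HSP70 genes, which hold HSFA1 in check between stresses, were all below 0 h at 1 h, with differences of -1.02 to -0.36. HSP70, the heat-induced member, was at 2.31 before induction, 1.93 after 1 h, 2.39 after 3 h and 2.17 after 6 h of estradiol, 2.70 in XVE plants and 2.46 in DMSO plants. HSC70-1, the main constitutive one, was at 1.97 before induction, 1.51 after 1 h, 1.71 after 3 h and 1.64 after 6 h of estradiol, 2.12 in XVE plants and 2.02 in DMSO plants. AT3G09440 was at 0.36 before induction, -0.66 after 1 h, 0.45 after 3 h and 0.16 after 6 h of estradiol, 0.55 in XVE plants and 0.70 in DMSO plants, 2.02-fold lower at 1 h than at 0 h. The 1 h array was the lowest of the 6 for these 3 genes and the 2 arrays of slide 2 the highest. The gaps, slide 1 minus slide 2, were only -0.07 (HSP70), -0.05 (HSC70-1) and -0.10 (AT3G09440). Single probes of HSC70-1 and AT3G09440 did not all share this order. Coding sequences of cytosolic HSP70 genes are much alike, so a probe may read more than 1 of them.

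Single probes show how even this was. At 1 h all 3 probes of AT3G09440 were below 0 h, with differences of -1.38 to -0.56, and so were 6 of 8 probes of HSC70-1, whose differences ranged from -0.85 to 0.21. In XVE plants the HSC70-1 probes spread from -1.32 to 0.88 relative to 0 h. HSP70B was highest at 3 h (-2.08) and lowest in XVE plants (-2.86), and Hsp70-2, next to HSC70-1 in the gene order of chromosome 5, was at -1.06 before induction, -1.55 after 1 h, -1.04 after 3 h and -1.21 after 6 h of estradiol, -1.78 in XVE plants and -1.10 in DMSO plants.

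**Figure D3:**
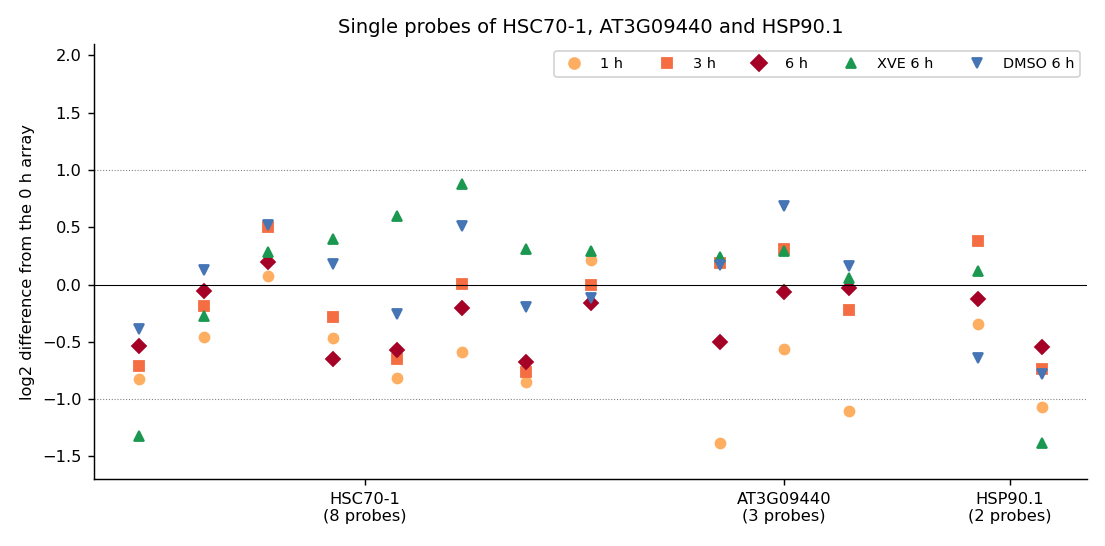
Log2 difference from the 0 h array (y axis) for each probe (x position) of HSC70-1, AT3G09440 and HSP90.1 on the other 5 arrays (symbols), with dotted lines at 2-fold. At 1 h all 3 AT3G09440 probes, both HSP90.1 probes and 6 of 8 HSC70-1 probes are below 0 h, and in XVE plants the HSC70-1 probes spread from -1.32 to 0.88.

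HSP90.1, the heat-inducible cytosolic HSP90, was at -0.86 before induction, -1.56 after 1 h, -1.04 after 3 h and -1.19 after 6 h of estradiol, -1.49 in XVE plants and -1.57 in DMSO plants. Its 2 probes differed from 0 h by -0.34 and -1.07 at 1 h, and by 0.12 and -1.38 in XVE plants. HSP101, the disaggregating chaperone, was at -2.00 before induction, -1.52 after 1 h, -1.60 after 3 h and -2.43 after 6 h of estradiol, -2.27 in XVE plants and -2.31 in DMSO plants. HSP101 was above 0 h at 1 h and 3 h and below it on the 3 arrays at 6 h, all by less than 2-fold.

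Counted over the set, 1 of 35 genes was at least 2-fold higher at 1 h than at 0 h and 6 were lower, where 6.31% and 6.38% of all genes were. The lower ones were HSFA5, HSFA7A, AT1G07400, HSP23.6-MITO, IDM2 and AT3G09440. The median difference at 1 h was -0.33 for the 16 factors and -0.39 for the 19 others, against -0.08 for all genes, with 26 of 35 below 0 (55.3% of all genes were). The measured markers of other organs were also lower at 1 h: the 3 flower markers had a mean level of 0.68 at 1 h and 1.37 at 0 h, and the 2 root markers 2.78 at 1 h and 3.63 at 0 h. The flower markers moved unevenly from 0 h to 1 h: SEP3 from 7.25 to 6.09, AP1 from -0.16 to -0.94 and PI from -3.00 to -3.11. SEP3 rested on 1 probe, as its other was not well above background on any array. The root markers measured were PYK10 and COBL9 only, without RHD6 and EXPA7. The 6 leaf markers had 4.16 at 1 h and 3.91 at 0 h, the 7 meristem markers -1.33 at 1 h and -1.17 at 0 h, and the part of these markers in the result was not tested. At 3 h none of 37 was at least 2-fold higher (2.38% of all genes) and 4 were lower (5.00%): HSFA5, HSFB2A, HSP17.6II and IDM2. At 6 h of estradiol HSFA8 was higher (2.61% of all genes) and HSFA5, HSFB2A and AT4G21870 were lower (2.84%), out of 37. Some of these calls ended under other settings: AT3G09440 at 1 h was between -0.97 and -0.56 under 4 of them, HSP17.6II at 3 h was -0.98 under quantile scaling and -0.85 under normexp, and HSFB2A at 6 h was -0.99 under quantile scaling. HSFA5 at 6 h fell under 2-fold too, with the values given above. The plants at 1, 3 and 6 h are each compared with the same 0 h array, and no solvent-brushed plants were sampled at 1 h or 3 h.

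In XVE plants 3 of 36 genes were at least 2-fold higher than at 0 h (7.25% of all genes) and 5 were lower (7.25%). In DMSO plants 3 were higher (4.61%) and 1 was lower (4.07%). HSFA5, HSFA8 and AT2G19310 were the higher genes in both kinds of plants. AT4G21870 was lower in both, and HSFA7A, AT1G07400, AT5G51440 and IDM2 were lower in XVE plants. Under normexp AT5G51440 in XVE plants was -0.56 and AT2G19310 in DMSO plants was 0.66. The 19 measured chaperone genes had a median of -0.62 in XVE plants and -0.17 in DMSO plants, and the 17 factors 0.20 and 0.02, against -0.02 for all genes in both comparisons. All 6 leaf mesophyll markers were above 0 h in XVE plants, 4 of them by at least 2-fold, with a median of 1.21, against 0.09 in DMSO plants, and their part in the chaperone values was not tested.

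**Figure D4:**
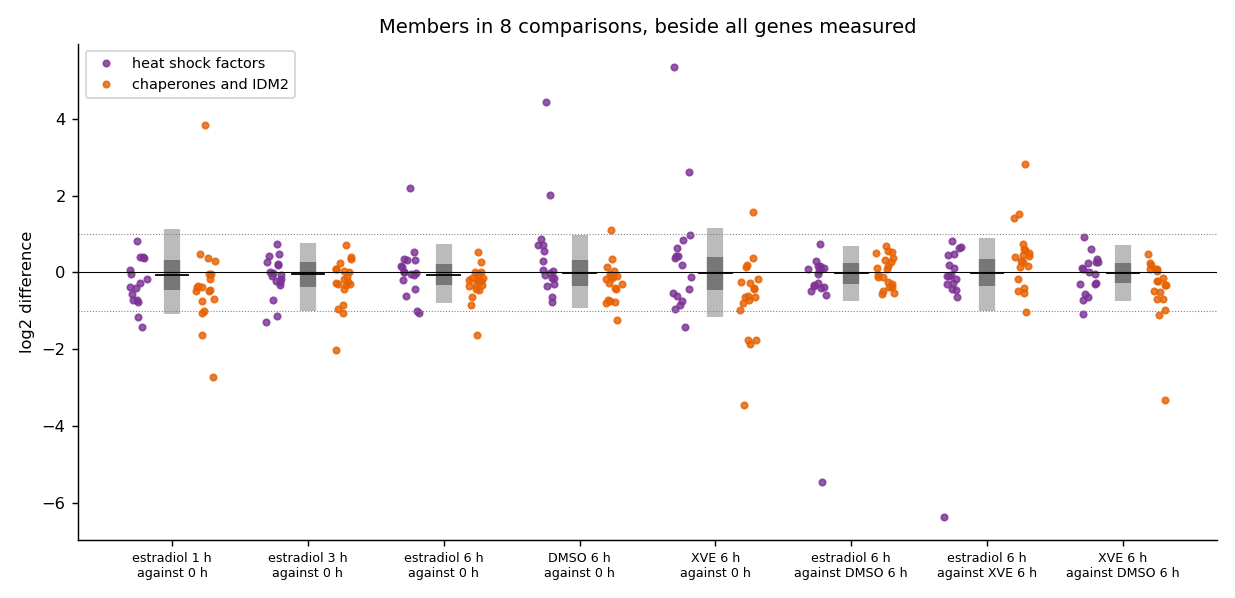
Log2 differences (y axis) of the heat shock factors and of the chaperones with IDM2 in 8 comparisons (x axis), the first-named array minus the second, for genes well above background on both; grey bars give the 5th to 95th percentile of all genes, dark bars the quartiles and black ticks the median. Most points lie inside the grey bars, and the points farthest out are HSFA5 (-6.38 against the XVE array), AT4G21870 (3.83 at 1 h) and IDM2 (-3.46 in XVE plants).

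Between estradiol and DMSO at 6 h, in the same line, HSFA5 was the single gene of 37 at least 2-fold apart. It was lower with estradiol (-5.45, where 2.42% of all genes were at least 2-fold lower), and these arrays lie on different slides. None was at least 2-fold higher (1.51% of all genes). The other 36 genes lay between -0.58 for HSFA2 and 0.73 for HSFB4. Differences of all 5 cytosolic HSP70 genes were below 0 (-0.54 to -0.07), where 52.9% of all genes were, and 9 of the 13 small heat shock protein genes measured, IDM2 included, were above 0, up to 0.69. The leaf mesophyll markers were lower with estradiol in this comparison, 6 of 6 below 0 with a median of -0.99, and their part in these differences was not tested.

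Between AMY3C-EY and XVE plants, both with estradiol at 6 h, IDM2 was at 4.49 in AMY3C-EY plants and 1.66 in XVE plants, a 7.09-fold difference. The leaf mesophyll markers ran the other way, with 6 of 6 lower in AMY3C-EY plants and a median of -1.93, and their part was not tested. AT1G07400 (2.67-fold) and AT5G51440 (2.89-fold) were also higher in AMY3C-EY plants, 3 genes of 36 where 3.70% of all genes were, and HSFA5 and AT2G19310 were lower (5.22% of all genes). Under the normexp correction AT5G51440 (0.36) and AT2G19310 (-0.94) were under 2-fold in this comparison. The level of AT5G51440 in XVE plants (-3.72) was near the lowest that cleared background there (-4.09). IDM2, AT1G07400 and HSFA7A were likewise lower in XVE plants than in DMSO plants of the same slide, by 9.97-fold, 2.14-fold and 2.12-fold (2.06% of all genes were at least 2-fold lower), and AT1G07400 was -0.87 there under quantile scaling. No gene was at least 2-fold higher in XVE plants than in DMSO plants (2.01% of all genes). Set against the 0 h, DMSO and XVE arrays together, the 6 h array of induced plants had HSFA5 lower, with a smallest difference of -1.01 (0.181% of all genes were at least 2-fold lower than all 3). This is its difference from 0 h, which ended as a 2-fold call under quantile scaling (just under), cyclic loess (-0.97) and normexp (-0.96). No gene of the set was at least 2-fold higher than all 3 (0.132%).

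Of 49 further genes of the heat and chaperone pathway, 48 had a probe and 43 were measured at 0 h and 1 h. The galactinol synthase gene GolS1, a target of heat shock factors that also answers to drought, was at -0.84 before induction, 1.11 after 1 h, 1.25 after 3 h and -1.09 after 6 h of estradiol, -1.06 in XVE plants and -0.51 in DMSO plants. GolS1 was thus the 1 further gene at least 2-fold higher at 1 h (1.95) and at 3 h (2.09), and on all 3 arrays at 6 h it was within 2-fold of its untreated level. HSP60-2, a mitochondrial chaperonin gene, had a level of -0.63 after 1 h, against 0.45 before induction, and was the 1 further gene at least 2-fold lower at 1 h. Each is 1 of 43, where 6.31% of all genes were at least 2-fold higher at 1 h and 6.38% lower. All 5 other HSP90 genes and all 8 measured other HSP70 and HSP110 genes were below 0 h at 1 h, with medians of -0.50 in each list, where 55.3% of all genes were, and none of them was 2-fold apart.

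Higher levels at 6 h than at 0 h were also seen in plants that were not both AMY3C-EY and induced. ACD32.1, a peroxisomal protein with an α-crystallin domain, was at -0.66 before induction, -1.36 after 1 h, -0.46 after 3 h and 1.69 after 6 h of estradiol, 2.46 in XVE plants and 1.68 in DMSO plants. The order of its levels over the 6 arrays was that of HSFA8, and its differences from 0 h were 2.35 at 6 h of estradiol, 3.12 in XVE plants and 2.34 in DMSO plants. DREB2A, a drought and heat factor gene, was at -2.19 at 6 h of estradiol, -2.15 in XVE plants, -1.94 in DMSO plants and -3.08 at 0 h. These are means of 3 probes that disagreed. The brightest of them at 0 h (-1.72) was not higher at 6 h of estradiol (-1.72), in XVE plants (-2.06) or in DMSO plants (-1.79). The others were higher on all 3 arrays at 6 h. DREB2B, its close relative, was at -2.01 at 6 h of estradiol, -2.38 in XVE plants, -2.22 in DMSO plants and -3.05 at 0 h. DREB2B at 6 h of estradiol (1.04) and, as the mean of its probes, DREB2A in DMSO plants (1.14) were at least 2-fold above 0 h. DREB2C, a related factor that acts on HSFA3, was not well above background at 0 h and 1 h. It was at -1.91 at 6 h of estradiol, against -3.77 in XVE plants and -3.14 in DMSO plants, so it was the 1 further gene at least 2-fold higher with estradiol than in DMSO plants (1.23) and in AMY3C-EY than in XVE plants (1.86), and at least 5.40-fold above 0 h. DREB2C has 1 probe, and its level in XVE plants was near the lowest that cleared background there (-4.09). Its differences were not recomputed under other settings. HSFA3 itself was at -2.63 at 6 h of estradiol, -2.45 in XVE plants and -2.72 in DMSO plants.

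CLPB2, a member of the family of HSP101, was well above background at 0 h (-2.89), 1 h (-3.00) and 6 h (-3.70) only. It was lower than at 0 h by at least 7.22-fold at 3 h, by at least 3.19-fold in DMSO plants and by at least 2.29-fold in XVE plants. Only 1 of the 2 CLPB2 probes entered these values, as the other was not well above background on any array. RTM2, a virus-restricting protein with an α-crystallin domain, had a difference of -1.08 between DMSO plants and 0 h. AT5G54660 was well above background on 2 of the 6 arrays only. At 6 h of estradiol it was too dim, and at least 2.60-fold lower than in XVE plants. It was too dim at 0 h, at 1 h and in DMSO plants as well. None of the 13 co-chaperone genes measured was 2-fold apart from 0 h on any array.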

How the data were processed

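Scanner files of 6 arrays were used, with 1 array per group and no replicates. The deposited intensity values come, per the file headers, from Agilent Feature Extraction (version 10.5.1.1 per the submitters' processing notes), which subtracts background and detrends within an array. The deposited files also flag spots above background or outlying. The authors' deposited table of log2 values was within 0.01 of a constant offset from the scale used here for all probes, with medians of -2.079 (0 h), -2.116 (1 h), -2.142 (3 h), -2.108 (6 h), -2.079 (XVE) and -2.136 (DMSO).

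Here, log2 processed intensity was set against the 75th percentile of 43803 non-control spots. Repeat spots were averaged without outlying ones, and 139 of 43603 probes were lost. RefSeq accessions, without versions, gave 34285 probes a locus of TAIR10.1 (9318 had none). A gene is the average over probes that cleared background on some array (21300 genes). Calls at 2-fold or more use genes that cleared background on each array compared, which took at least 1 of their probes. A probe too dim on that array still entered the average, as in HSFA1B at 1 h and HSFA1A in XVE plants. Where a gene was too dim on 1 side, "at least N-fold" is taken against its own dim value or the array's lowest value that cleared background, whichever is higher: -4.34 (0 h), -4.52 (1 h), -5.74 (3 h), -5.13 (6 h), -4.09 (XVE) or -4.56 (DMSO). A gene could miss the background cut above that lowest value, as ATHSP22.0 did at 1 h (-4.07), so these bounds are approximate. Against all 3 controls, the difference of smallest size is given. No spot was saturated.

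The 42 genes and the lists were chosen with earlier results of these data known. Any of the 42 could be named, and of the listed pathway genes those at least 2-fold apart, up to 4 per list and comparison. Alternatives were quantile scaling, cyclic loess, normexp (offset 50, on median spot and background intensity), the authors' table, leaving out the dimness filter, requiring all 6 arrays, the brightest probe, and leaving out each control. The counting of genes at least 2-fold apart was tested on simulated data with known changes. Those data held only genes well above background on all 6 arrays, with independent noise and no slide or brightness effect. They give no error for the differences reported here. R 4.3.3, limma 3.58.1, Python 3.11.15, pandas 2.3.3 and matplotlib 3.10.9 were used.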

Additional observations from a re-analysis of the deposited data

Results flagged for a closer look

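AT4G21870 was at least 2-fold above 0 h on 1 array and at least 2-fold below on others: its difference was 3.83 at 1 h, -1.63 at 6 h of estradiol, -1.77 in XVE plants and -1.25 in DMSO plants. HSFA5 likewise ran both ways, with -1.16 at 1 h, -1.13 at 3 h and -1.01 at 6 h of estradiol, against 5.36 in XVE plants and 4.44 in DMSO plants. These differences between arrays were not tested, since each group is 1 array and all share the 0 h array.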

How the results depend on the processing

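Of 132 recomputed counts of genes at least 2-fold apart, 119 stayed within 1.5 times and 13 moved. Without the filter on dim probes the counts were 3 higher at 1 h (1 with the filter), 1 higher at 3 h (0), 2 higher at 6 h of estradiol against 0 h (1), 1 higher and 2 lower against DMSO (0 and 1), 4 lower against XVE plants (2), and 1 higher between XVE and DMSO plants (0). Quantile scaling gave 1 lower at 6 h of estradiol against 0 h (3 on the scale used) and 0 lower than all 3 controls (1). Cyclic loess gave 1 higher between XVE and DMSO plants (0) and 0 lower than all 3 controls. Normexp gave 1 lower against XVE plants (2) and 0 lower than all 3 controls. The cause of these moves was not tested, except that leaving out the filter adds genes. Of 2271 recomputed differences of single genes, 0 of those at least 2-fold apart changed sign, 19 fell under 2-fold and 6 passed it. HSFA5 at 6 h, against 0 h and against all 3 controls, was just under 2-fold with quantile scaling, -0.97 under cyclic loess and -0.96 under normexp, and AT5G51440 in XVE plants was -0.56 under normexp. Leaving out each control array moved none of the counts. The share of higher calls among all genes called moved by over 10 points at 1 h (49.8%, against 60.6% under cyclic loess), at 3 h (32.2%, against 45.4% under quantile scaling and 15.4% under normexp), against XVE plants (41.5%, against 29.4% under normexp) and against all 3 controls (42.1%, against 57.1% under normexp). Without the dim filter it was 18.9% at 3 h, 25.7% against XVE plants and 50.4% against DMSO plants (38.4% with the filter). Normexp moved the median of all genes to -0.19 at 3 h (-0.05 on the scale used), -0.17 against XVE plants (0.00) and 0.15 between XVE and DMSO plants (-0.02). No paired analysis was possible because each group is 1 array. With no replicates, slides that part the XVE and DMSO plants from the time course, and 2 genes below background on every array, the small differences given here have no known error.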
